A study of Mus musculus with 8 samples.

Results

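The contractile and caveolar genes of mesenchymal cells were followed in mouse embryonic stem cells (ESCs) whose own WDR5 had been replaced by a human copy, either wild type or carrying the F266A change in its RNA-binding pocket. The set holds 10 genes, Tagln, Acta2, Myl9, Tpm1, Tpm2, Cnn1, Cnn2, Cav1, Cav2 and Thbs1, and takes every probe set whose only gene symbol is one of these names. That gave 20 of the 45101 probe sets on the array, and 1 further probe set that names Pald1 beside Thbs1 was left out. A probe set counted as expressed when it exceeded 50 on the linear scale (5.64 on the log2 scale) in at least 1 array. By this minimum 17 of the 20 probe sets were expressed, and each of the 10 genes kept at least 1 of them, so all 10 were among the 11940 genes tested.

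All cells were V6.5 ESCs grown without feeder cells on gelatin with LIF, the cytokine that holds mouse ESCs in self-renewal. Every group carried the same lentiviral cassette, in which an shRNA against mouse Wdr5 was always expressed and a human WDR5 linked to GFP was expressed only with doxycycline (dox), and GFP-positive cells had been sorted to make each line. The groups, with 2 arrays each, were F266A -dox, F266A +dox, WT -dox and WT +dox, where +dox meant 2 µg/mL of doxycycline. Each WDR5 form was represented by a single line, and the mutant protein was the less abundant and less stable form, so the mutation, the amount of WDR5 and the line itself cannot be told apart in a difference between F266A and WT arrays. The labels call the arrays of a group replicates without saying whether they came from separate cultures, and p-values here measure only the spread between such arrays.

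Smooth muscle cells, myofibroblasts and other mesenchymal cells contract and pull on their matrix through bundles of actin and myosin. Acta2 encodes the smooth muscle actin of these bundles, Myl9 a regulatory light chain of the myosin, Tpm1 and Tpm2 the tropomyosins that lie along actin filaments, and Tagln, Cnn1 and Cnn2 actin-binding proteins of the transgelin and calponin family. Many genes of this kind are switched on by serum response factor (SRF) with its cofactors of the myocardin family, through a short promoter element called the CArG box. Cav1 and Cav2 encode the caveolins, which form the coat of caveolae, small pits of the plasma membrane. Thbs1 encodes thrombospondin 1, a secreted matrix glycoprotein that can activate latent TGF-beta. Self-renewing ESCs are not contractile cells, and such genes are commonly read as signs of differentiation in their cultures.

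The promoter windows of the members are given here because the CArG box is the element by which many of these genes are known to be controlled. The RefSeq table for GRCm38.p6 held windows of 250 bases before to 50 bases after the start site for 8 of the 10 members. Tagln and Thbs1 had no entry. A CArG box on either strand was found in the windows of Myl9 and Cnn2, 2 of the 8 members, and in 1.63% of all 32851 windows in the table. Allowing at most 1 base of the element's core to be other than A or T added Acta2, which made 3 of 8 members, against 9.98% of all windows. The 3 windows are printed 5′ to 3′ on the strand of the gene, with CArG boxes and near matches in capitals. In the Myl9 window (chr2:156775214-156775513, plus strand) the box CCTAATAAGG starts 161 bases before the start site and the near match CCTTGTAAGG 99 bases before it. In the Cnn2 window (chr10:79988350-79988649, plus strand) the box CCTTATAAGG starts 56 bases before the start site. In the Acta2 window (chr19:34255324-34255623, minus strand) the capitals mark near matches that start 84 and 34 bases before the start site.
Myl9: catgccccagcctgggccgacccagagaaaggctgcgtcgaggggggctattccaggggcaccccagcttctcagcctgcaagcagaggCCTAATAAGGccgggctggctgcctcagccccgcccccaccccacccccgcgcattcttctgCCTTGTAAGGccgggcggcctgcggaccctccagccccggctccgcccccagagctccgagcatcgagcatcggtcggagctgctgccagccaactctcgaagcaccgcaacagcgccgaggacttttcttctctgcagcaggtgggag
Cnn2: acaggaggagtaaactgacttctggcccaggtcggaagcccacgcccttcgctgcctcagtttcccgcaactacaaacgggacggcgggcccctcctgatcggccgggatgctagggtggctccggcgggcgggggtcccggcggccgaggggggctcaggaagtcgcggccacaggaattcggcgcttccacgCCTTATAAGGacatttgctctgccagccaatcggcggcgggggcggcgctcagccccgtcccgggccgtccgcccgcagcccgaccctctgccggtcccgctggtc
Acta2: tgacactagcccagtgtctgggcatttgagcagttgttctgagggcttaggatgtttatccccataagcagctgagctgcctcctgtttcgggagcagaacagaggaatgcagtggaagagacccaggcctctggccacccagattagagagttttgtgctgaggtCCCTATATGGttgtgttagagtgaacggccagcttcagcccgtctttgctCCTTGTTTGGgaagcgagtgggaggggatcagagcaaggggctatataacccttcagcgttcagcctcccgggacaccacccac

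The letters GGAATG or CATTCC, the element bound by TEAD factors, were in the windows of Acta2 and Tpm1, 2 of 8 members, and in 14.7% of all windows. TATAAA or TTTATA was in 1 of the 2 Cav1 windows, in no window of another member, and in 13.6% of all windows. A match describes the letters and does not show that a factor bound there.

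Before the members, the arrays themselves were compared. Array medians lay between 5.36 and 5.39 on the log2 scale, duplicates correlated across genes at 0.997 to 0.998 and arrays of different groups at 0.985 to 0.996. The 15 ESC markers looked up, among them Pou5f1 and Nanog, were all above the minimum. Of 20 fibroblast markers 6 were above it in any array, and Col1a1, Col3a1, Pdgfra, Thy1 and Dcn were not. Wdr5, the target of the shRNA, had gene values of 9.31 and 9.27 in F266A -dox, 8.59 and 8.56 in F266A +dox, 9.45 and 9.35 in WT -dox, and 8.35 and 8.32 in WT +dox. These values were lower with dox in both lines, and since every group carried the shRNA they are no check of the group labels. Whether these probe sets read mouse Wdr5 alone or also the induced human transcript was not tested.

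The central result was an order shared by nearly all members. In 8 of the 10 genes the group means ran F266A -dox, F266A +dox, WT -dox, WT +dox from high to low, an order held by 11.5% of all genes tested. The members were chosen with earlier results of these data known, so this count and those below are no independent support. In Acta2 and Cav1 the order was the same except that the WT groups, which overlapped, changed places. All 4 F266A arrays lay above all 4 WT arrays for all 10 members, a separation also seen in 11.5% of all genes tested. For Cav2 the order and the separation held for the average of its probe sets but not for the brighter one, 1425955_at. That probe set read 5.56 and 5.65 in F266A +dox and 5.65 and 5.68 in WT +dox. The 3 neighbouring steps of this order all passed the test in 3 members, Tagln, Myl9 and Cnn1, and in 0.745% of all genes tested. Values of different genes come from different probes and are not set against each other here.

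**Figure D1:**
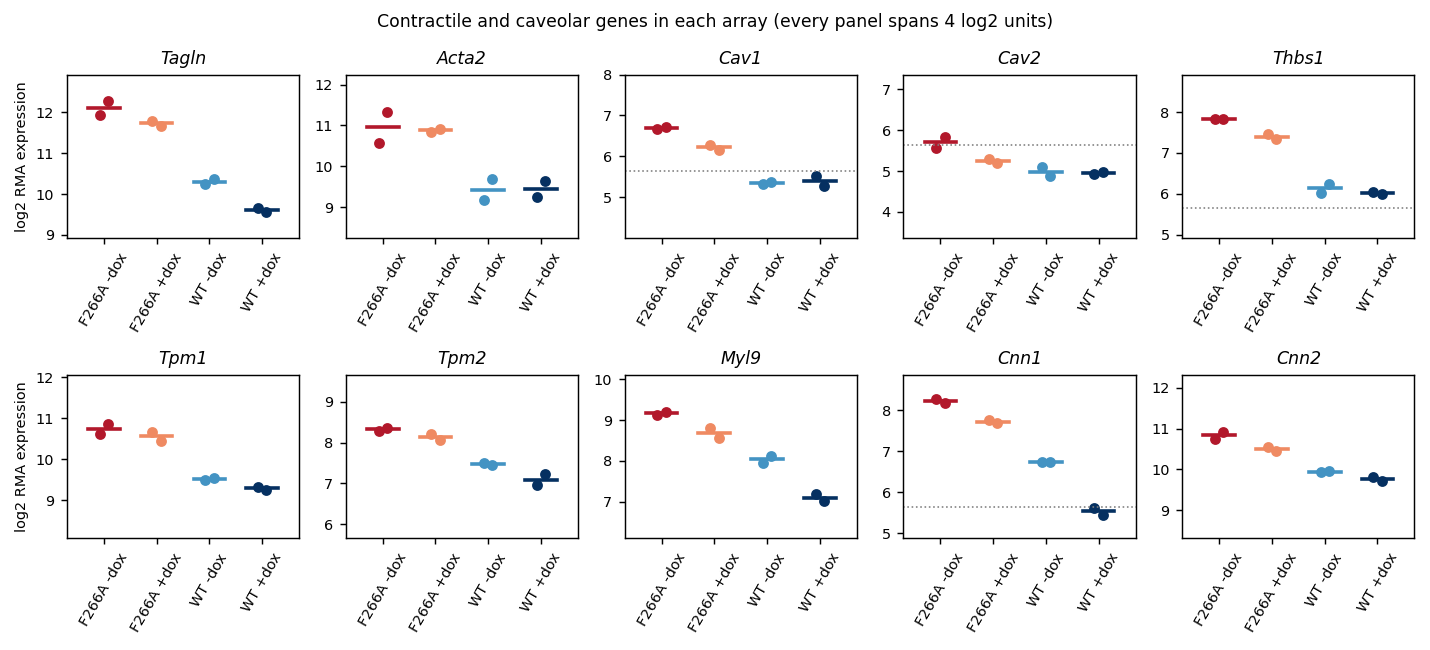
Log2 RMA expression of the 10 members in each of the 8 arrays, with groups from left to right F266A -dox, F266A +dox, WT -dox and WT +dox. Points are arrays, short lines are group means, the dotted line is the expression minimum of 5.64, and every F266A point lies above every WT point of the same gene.

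Tagln, which encodes transgelin, an early marker of smooth muscle differentiation, had log2 values of 11.93 and 12.27 in F266A -dox, 11.80 and 11.66 in F266A +dox, 10.25 and 10.36 in WT -dox, and 9.67 and 9.57 in WT +dox. No groups overlapped. With dox present, Tagln was 2.11 ± 0.11 (SE) higher on the log2 scale in F266A than in WT cells, a 4.31-fold difference (limma, adjusted p = 5.06e-06), and without dox it was 1.80 ± 0.11 higher (adjusted p = 1.53e-05). Withdrawal of dox raised it by 0.68 ± 0.11 in WT cells (adjusted p = 0.0017) and by 0.37 ± 0.11 in F266A cells (adjusted p = 0.0437). The call in F266A cells was lost without any 1 of 7 of the 8 arrays, at adjusted p values of 0.0536 to 0.229.

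Cnn1, which encodes the calponin of differentiated smooth muscle, spread over the widest range of the members. Its log2 values were 8.29 and 8.19 in F266A -dox, 7.77 and 7.69 in F266A +dox, 6.73 and 6.74 in WT -dox, and 5.62 and 5.45 in WT +dox. The 4 groups stood clear of each other, and the WT +dox arrays alone were under the expression minimum. The gene was 2.19 ± 0.08 higher in F266A +dox than in WT +dox cells (4.56-fold, adjusted p = 7.69e-07) and 2.70 ± 0.08 higher in F266A -dox than in WT +dox cells (6.5-fold, adjusted p = 9.58e-08). Withdrawal raised Cnn1 by 1.20 ± 0.08 in WT cells (adjusted p = 1.5e-05) and by 0.51 ± 0.08 in F266A cells (adjusted p = 0.00303). The rise on withdrawal was smaller in F266A than in WT cells by the test of that difference, at -0.69 ± 0.11 (adjusted p = 0.0101). Without replicate 1 of F266A +dox this call was lost, at -0.65 and adjusted p = 0.0561.

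Cnn2 encodes the calponin that is also made by non-muscle cells, and its range was narrower. Its values were 10.75 and 10.92 in F266A -dox, 10.56 and 10.44 in F266A +dox, 9.93 and 9.96 in WT -dox, and 9.81 and 9.71 in WT +dox. The groups kept the shared order without overlap, and the steps were small. Cnn2 was 0.74 ± 0.08 higher in F266A +dox than in WT +dox (adjusted p = 0.000193) and 0.34 ± 0.08 higher in F266A -dox than in F266A +dox cells (adjusted p = 0.0188). Its difference on withdrawal in WT cells, 0.18 ± 0.08, missed the threshold (adjusted p = 0.112).

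Myl9, the light chain through which myosin is switched on in smooth muscle and non-muscle cells, had values of 9.12 and 9.20 in F266A -dox, 8.81 and 8.57 in F266A +dox, 7.95 and 8.13 in WT -dox, and 7.20 and 7.01 in WT +dox. All groups were apart. Myl9 was 1.58 ± 0.10 higher in F266A +dox than in WT +dox cells (adjusted p = 1.27e-05), and 1.12 ± 0.10 higher when both lines lacked dox (adjusted p = 8.29e-05). Withdrawal raised it by 0.93 ± 0.10 in WT cells (adjusted p = 0.000224) and by 0.47 ± 0.10 in F266A cells (adjusted p = 0.0133). The difference between these rises was -0.46 ± 0.15 and did not pass (adjusted p = 0.109).

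Acta2, the smooth muscle actin, was read from 1 probe set of a kind that can match several transcripts, since its other 2 probe sets stayed between 3.52 and 4.03 in all arrays. Its values were 10.58 and 11.32 in F266A -dox, 10.84 and 10.92 in F266A +dox, 9.17 and 9.69 in WT -dox, and 9.24 and 9.64 in WT +dox. The lines were apart, whereas the -dox and +dox arrays of each line overlapped. Acta2 was 1.44 ± 0.24 higher in F266A +dox than in WT +dox cells (adjusted p = 0.00198) and 1.52 ± 0.24 higher in F266A -dox than in WT -dox cells (adjusted p = 0.00156). On withdrawal the differences were -0.02 ± 0.24 in WT and 0.07 ± 0.24 in F266A cells, with 95% intervals of -0.55 to 0.52 and -0.47 to 0.61. The SD of the F266A -dox duplicates, 0.53, was the largest of any member in any group.

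Tpm1 and Tpm2, tropomyosins made in many isoforms by alternative splicing, had several expressed probe sets each, whose average was tested. The average for Tpm1 was 10.63 and 10.87 in F266A -dox, 10.67 and 10.44 in F266A +dox, 9.49 and 9.55 in WT -dox, and 9.33 and 9.25 in WT +dox. The F266A groups overlapped and the WT groups did not. Tpm1 was 1.27 ± 0.10 higher in F266A +dox than in WT +dox cells (adjusted p = 3.14e-05), and its differences on withdrawal, 0.23 ± 0.10 in WT and 0.19 ± 0.10 in F266A cells, did not pass (adjusted p = 0.112 and 0.214). The average for Tpm2 was 8.29 and 8.36 in F266A -dox, 8.21 and 8.07 in F266A +dox, 7.49 and 7.44 in WT -dox, and 6.95 and 7.22 in WT +dox. No groups of Tpm2 overlapped. Tpm2 was 1.05 ± 0.10 higher in F266A +dox than in WT +dox cells (adjusted p = 7.04e-05) and rose by 0.38 ± 0.10 on withdrawal in WT cells (adjusted p = 0.0148), a call lost without replicate 1 of WT -dox (0.35, adjusted p = 0.0773) or of WT +dox (0.24, adjusted p = 0.0989).

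Cav1 was a dim gene in the WT line. Its values were 6.68 and 6.73 in F266A -dox, 6.29 and 6.16 in F266A +dox, 5.32 and 5.38 in WT -dox, and 5.52 and 5.27 in WT +dox. It was above the minimum in every F266A array and under it in every WT array, so the line differences are measured from a level under the minimum. Cav1 was 0.83 ± 0.09 higher in F266A +dox than in WT +dox cells (adjusted p = 0.000195) and 1.35 ± 0.09 higher when both lines lacked dox (adjusted p = 2.2e-05). Withdrawal raised it by 0.48 ± 0.09 in F266A cells (adjusted p = 0.00707), against -0.05 ± 0.09 in WT cells (adjusted p = 0.746). The difference between these changes was 0.52 ± 0.13 (adjusted p = 0.0487), a call lost without any 1 of 7 of the 8 arrays, at adjusted p values of 0.0659 to 0.141.

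Cav2, whose product assembles with caveolin 1, was at the edge of detection. Its values were 5.57 and 5.84 in F266A -dox, 5.29 and 5.20 in F266A +dox, 5.09 and 4.88 in WT -dox, and 4.93 and 4.99 in WT +dox. The F266A groups were apart from each other and the WT groups overlapped. In a single array, replicate 2 of F266A -dox, the gene value was over the minimum. Cav2 was 0.72 ± 0.10 higher in F266A -dox than in WT -dox cells (adjusted p = 0.000956) and 0.46 ± 0.10 higher than in F266A +dox cells (adjusted p = 0.0145), whereas the difference between the lines with dox, 0.29 ± 0.10, did not pass (adjusted p = 0.0644). The 3 calls for F266A -dox were lost with median-centred arrays, with quantile normalization and with each gene's brightest probe set in place of the average. The differences were then 0.28 to 0.29 against WT -dox (adjusted p = 0.0501 to 0.0563), 0.22 against WT +dox (adjusted p = 0.0758 to 0.0894) and 0.27 to 0.28 on withdrawal (adjusted p = 0.0713 to 0.0749). These settings need not be separate failures, since the dimmer probe set, 1417327_at, passed the minimum of 5.644 at 5.646 in a single array. Under both normalizations the difference from WT -dox, 0.28, was close to the 0.29 of 1425955_at alone and far from the 0.72 of the average. Whether 1417327_at left the average there was not checked directly. Without replicate 1 or replicate 2 of F266A -dox the difference between the lines with dox passed (adjusted p = 0.0338 each time), and the call on withdrawal was lost without replicate 2 of F266A -dox or either array of F266A +dox (adjusted p = 0.0587 to 0.0878). Cav1 and Cav2 are neighbours on chromosome 6, where the median over 571 genes was 0.06 in the comparison of the lines with dox. It was 0.05 between the lines without dox, 0.06 on withdrawal in F266A cells and 0.12 for F266A -dox against WT +dox.

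Thbs1 had values of 7.84 and 7.82 in F266A -dox, 7.46 and 7.34 in F266A +dox, 6.03 and 6.24 in WT -dox, and 6.04 and 6.00 in WT +dox. The WT groups overlapped and the F266A groups stood above them and apart from each other. Thbs1 was 1.39 ± 0.08 higher in F266A +dox than in WT +dox cells (adjusted p = 8.73e-06) and 1.70 ± 0.08 higher in F266A -dox than in WT -dox cells (adjusted p = 5.66e-06). Withdrawal raised it by 0.43 ± 0.08 in F266A cells (adjusted p = 0.00781), and in WT cells the difference was 0.12 ± 0.08 (adjusted p = 0.309).

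Counted by comparison, 9 of the 10 members were higher in F266A +dox than in WT +dox cells, the exception being Cav2, where 15.9% of all genes tested were called higher. The median difference of the members was 1.33, against 0.00 over all genes. Without dox all 10 were higher in F266A than in WT cells (14% of all genes), with a median of 1.29. Against WT +dox, F266A -dox cells had all 10 higher (25.9% of all genes, median 1.48). Against WT -dox, F266A +dox cells had 9 higher (9.09% of all genes, median 0.93), again without Cav2. Cav1 and the Cav2 probe set 1417327_at entered the test through F266A arrays alone, where they were high. So did the Thbs1 probe set 1450377_at and the Tpm2 probe set 1449577_x_at. The other Cav2 probe set, 1425955_at, passed in arrays of both lines. The Cav2 calls for F266A -dox were lost under the 3 settings given above. The mean was above the minimum in every group for 7 members, that is without Cav1, Cav2 and Cnn1. All 7 were called higher in each of these 4 comparisons, with medians of 1.04 to 1.51. Thbs1 and Tpm2 are among the 7, and their averages include 1450377_at and 1449577_x_at. These 7 are therefore not free of probe sets that passed the minimum through F266A arrays alone.

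Withdrawal of dox had smaller median differences than the line comparisons. In WT cells 4 members rose, Tagln, Tpm2, Myl9 and Cnn1 (16.1% of all genes, median of the members 0.21). In F266A cells 7 rose, Tagln, Cav1, Cav2, Thbs1, Myl9, Cnn1 and Cnn2 (8.94% of all genes, median 0.40). Tagln, Myl9 and Cnn1 rose in both lines, and Acta2 and Tpm1 passed in neither. The count in F266A cells rested on single arrays. Without replicate 2 of F266A +dox, 1 member was called, Cnn1, and the other 6 had differences of 0.28 to 0.42 with adjusted p values of 0.0566 to 0.201. Without replicate 2 of F266A -dox, 3 members were called, and Tagln, Cav2, Myl9 and Cnn2 were not, with differences of 0.20 to 0.44. The difference between the withdrawal effects, tested as the interaction, was called for Cav1 as higher in F266A (2.21% of all genes) and for Cnn1 as lower (2.94% of all genes). These comparisons share arrays, so their counts are not independent of each other.

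**Figure D2:**
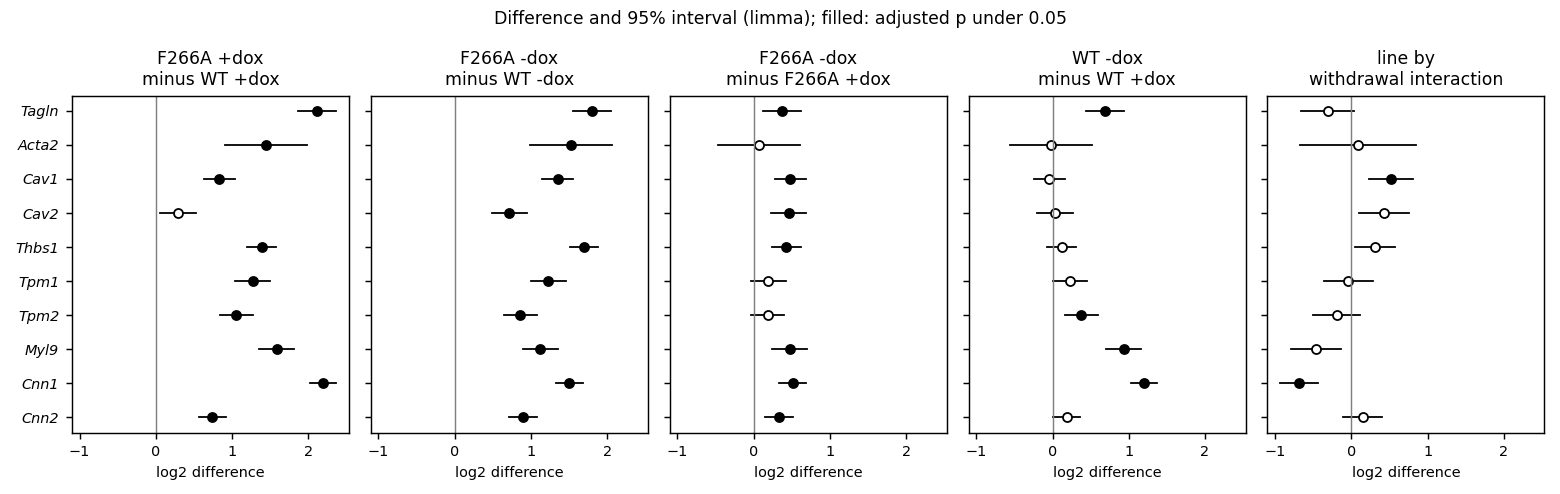
Log2 difference of each member in 5 comparisons, with 95% intervals from limma on the horizontal lines and filled points for adjusted p under 0.05. The points of the line comparisons, in the 2 panels at left, lie farther from 0 than those of withdrawal for every member except Cav2, whose difference with dox was 0.29.

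With a change of at least 2-fold also required, 7 members were higher in F266A +dox than in WT +dox cells (1.5% of all genes) and 7 in F266A -dox than in WT -dox cells (1.62%). The same threshold left 9 for F266A -dox against WT +dox (3.35%) and 4 for F266A +dox against WT -dox (0.62%). It left Cnn1 alone for withdrawal in WT cells (0.737%), none for withdrawal in F266A cells (0.293%) and none for the interaction (0.235%).

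The share of the whole span that each step covered differed among the members. Taking the difference between F266A -dox and WT +dox as 100%, WT -dox cells stood at 45.4% for Myl9, 44.4% for Cnn1, 30.7% for Tpm2 and 27.5% for Tagln. They stood at 17.1% for Cnn2, 15.8% for Tpm1, 6.59% for Thbs1, 4.23% for Cav2, -1.03% for Acta2 and -3.48% for Cav1. On the same scale F266A +dox cells stood between 63.5% (Cav1) and 95.3% (Acta2) for all members but Cav2, at 38.5%. For Cnn1, Cav1 and Cav2 these shares are measured from a WT +dox level under the minimum. They are descriptions without a test.

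The separate probe sets of a gene did not always move together. Tpm2 had 3 probe sets that were 1.34 to 1.50 higher in F266A +dox than in WT +dox cells, whereas 1419739_at stayed between 5.74 and 6.08 in all 8 arrays, near the minimum. Of the 3, 1449577_x_at was under the minimum in every WT array. It read 5.83 and 5.59 in F266A +dox and 4.04 and 4.64 in WT +dox. Of the Tpm1 probe sets, 1423721_at read 11.81 and 12.03 in F266A -dox, 11.49 and 11.39 in F266A +dox, 10.40 and 10.40 in WT -dox, and 9.80 and 9.70 in WT +dox, with no overlap. It rose by 0.64 ± 0.09 on withdrawal in WT cells (adjusted p = 0.00143), while 1423049_a_at and 1456623_at differed by 0.07 ± 0.12 and -0.02 ± 0.12. For Cav2, 1417327_at read 5.40 and 5.65 in F266A -dox, 5.01 and 4.75 in F266A +dox, 4.55 and 4.22 in WT -dox, and 4.20 and 4.29 in WT +dox. It was over the minimum in 1 array, replicate 2 of F266A -dox, so its differences lie among levels under the minimum. The other Cav2 probe set, 1425955_at, stayed between 5.55 and 6.03 in all arrays. Its F266A +dox arrays overlapped those of WT cells, with a difference of -0.06 ± 0.10 from WT +dox.

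The Thbs1 probe sets agreed in direction, at 1.73 ± 0.11 for 1460302_at and 1.04 ± 0.13 for 1450377_at in F266A +dox over WT +dox. In every WT array 1450377_at was under the minimum, at 5.57 and 5.26 in WT +dox. The probe set that also names Pald1 was not tested, and read 10.68 and 10.80 in F266A -dox, 10.28 and 10.27 in F266A +dox, 8.38 and 8.80 in WT -dox, and 8.10 and 8.15 in WT +dox. It kept the order of the members, and which of its genes it reports was not settled here.

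**Figure D3:**
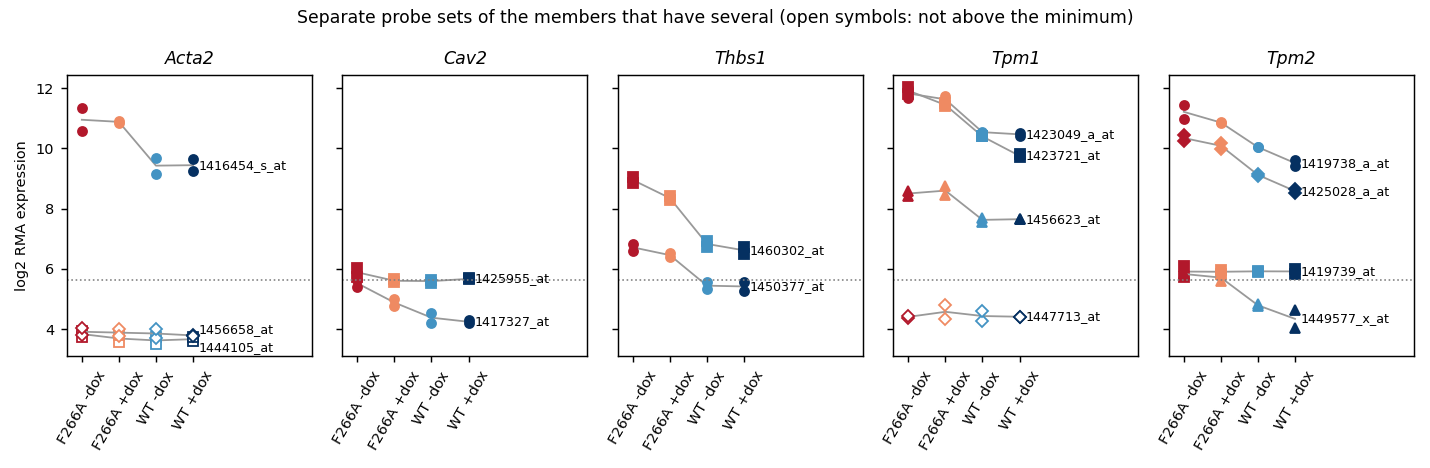
Log2 RMA expression of each probe set of the 5 members that have several, with groups from left to right F266A -dox, F266A +dox, WT -dox and WT +dox. Points are arrays, grey lines join group means, open symbols are probe sets under the minimum of 5.64 (dotted) in all arrays, and the Tpm2 probe set 1419739_at is flat where the other 3 fall from left to right.

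Genes that work with the members or belong to their families were then counted from lists. Of all 11940 genes tested, 1896 (15.9%) were called higher and 1488 lower in F266A +dox than in WT +dox cells. Without dox these counts were 1676 (14%) and 1601. On withdrawal they were 1925 (16.1%) and 1838 in WT cells, and 1067 (8.94%) and 1266 in F266A cells. Of 27 smooth muscle and SRF target genes 22 were expressed, and 14 of these were higher and none lower in F266A +dox than in WT +dox cells (median 0.46). Lpp (1.22 ± 0.11), a focal adhesion protein of smooth muscle, Cald1 (1.02 ± 0.11), which encodes caldesmon, Tpm4 (1.00 ± 0.09), another tropomyosin, and Csrp1 (0.84 ± 0.14) led it. Cald1 had values of 9.35 and 9.18 in F266A +dox and 8.11 and 8.38 in WT +dox, with no overlap. Without dox 14 of the 22 were again higher in F266A cells and none lower (median 0.47). On withdrawal 5 rose and 2 fell in WT cells and 5 rose and none fell in F266A cells. The counts in WT cells were not far from the shares over all genes. Myh11, Actg2, Mylk, Synpo2 and Filip1l, among them the myosin heavy chain and the enteric actin of mature smooth muscle, were not above the minimum in any array.

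Among the caveolar partners was Cavin1, the gene of the coat protein needed to form caveolae. Its values were 8.70 and 9.04 in F266A -dox, 8.34 and 8.34 in F266A +dox, 7.54 and 7.67 in WT -dox, and 6.95 and 6.93 in WT +dox. The groups did not overlap and ran in the order shared by 8 of the members. On withdrawal in WT cells Cavin1 rose by 0.67 ± 0.10 (adjusted p = 0.0014), where Cav1 and Cav2, at -0.05 ± 0.09 and 0.03 ± 0.10, were not called. Cavin1 was 1.40 ± 0.10 higher in F266A +dox than in WT +dox cells (adjusted p = 2.08e-05), and of the 7 expressed genes of this list the only other called was Ehd4 (0.34 ± 0.07). Cav3, Cavin2, Cavin3 and Cavin4 were not above the minimum.

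Paralogs of the members moved in both directions. Of 16 expressed paralogs 6 were higher and 3 lower in F266A +dox than in WT +dox cells (median 0.17). Acta1, the skeletal muscle actin, was higher by 1.67 ± 0.13, and read 9.93 and 9.73 in F266A +dox arrays and 8.18 and 8.13 in those of WT +dox. Tpm4 (1.00 ± 0.09), Thbs3 (0.91 ± 0.13) and Myl12a (0.56 ± 0.08) followed. Tagln3 (-0.32 ± 0.09), the neuronal transgelin, Myl7 (-0.29 ± 0.09), an atrial light chain, and Cnn3 (-0.26 ± 0.06) were lower. Actins have closely alike coding sequences, so signal shared between actin probe sets was not tested.

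Of 22 expressed regulators of contractile genes 6 were higher and 2 lower in F266A +dox than in WT +dox cells (median 0.04). The growth factor gene Tgfb2 read 6.17 and 6.36 in the F266A +dox arrays and 4.90 and 4.88 in those of WT +dox (1.37 ± 0.09, adjusted p = 1.27e-05), and the receptor gene Tgfbr2 was higher by 0.96 ± 0.08. The WT +dox levels of both genes were under the minimum, and those of Tgfb2 were under it in WT -dox as well. The coactivator Yap1 (0.46 ± 0.07) and its partner Tead1 (0.44 ± 0.07) also passed. Srf itself had values of 7.93 and 7.89 in F266A +dox and 7.59 and 7.43 in WT +dox, a difference of 0.40 ± 0.09 (adjusted p = 0.0079), and its cofactor Mrtfa one of 0.41 ± 0.08. Myocd, the cofactor that marks smooth and cardiac muscle, was not above the minimum. On withdrawal in WT cells 3 regulators rose, Srf, Mrtfa and Yap1, and 3 fell, Klf4 (-0.55 ± 0.07), Tead4 (-0.40 ± 0.08) and Wwtr1 (-0.30 ± 0.09). These counts are near the shares over all genes, of which 16.1% rose and 1838 of 11940 fell. On withdrawal in F266A cells none rose and 4 fell, with Klf4 at -0.93 ± 0.07.

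Of 16 expressed TGF-beta and YAP target genes 10 were higher and 1 lower in F266A +dox than in WT +dox cells (median 0.62). Among those higher were Col4a2 (1.58 ± 0.12) and Col4a1 (1.44 ± 0.09), which encode chains of basement membrane collagen. The matricellular gene Ccn2 (1.53 ± 0.09) and the receptor gene Axl (1.30 ± 0.12) were also higher. Axl was under the minimum in every WT array. Ccn2 read 10.85 and 10.92 in the F266A +dox arrays and 9.28 and 9.43 in those of WT +dox. Tgfbi, named for its induction by TGF-beta, went the other way, at 6.79 and 6.78 in the F266A +dox arrays and 7.91 and 7.97 in those of WT +dox (-1.15 ± 0.09, adjusted p = 2.89e-05). The lists of targets and regulators share Smad7, and the paralogs share Tpm3, Tpm4 and Actg2 with the smooth muscle list.

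**Figure D4:**
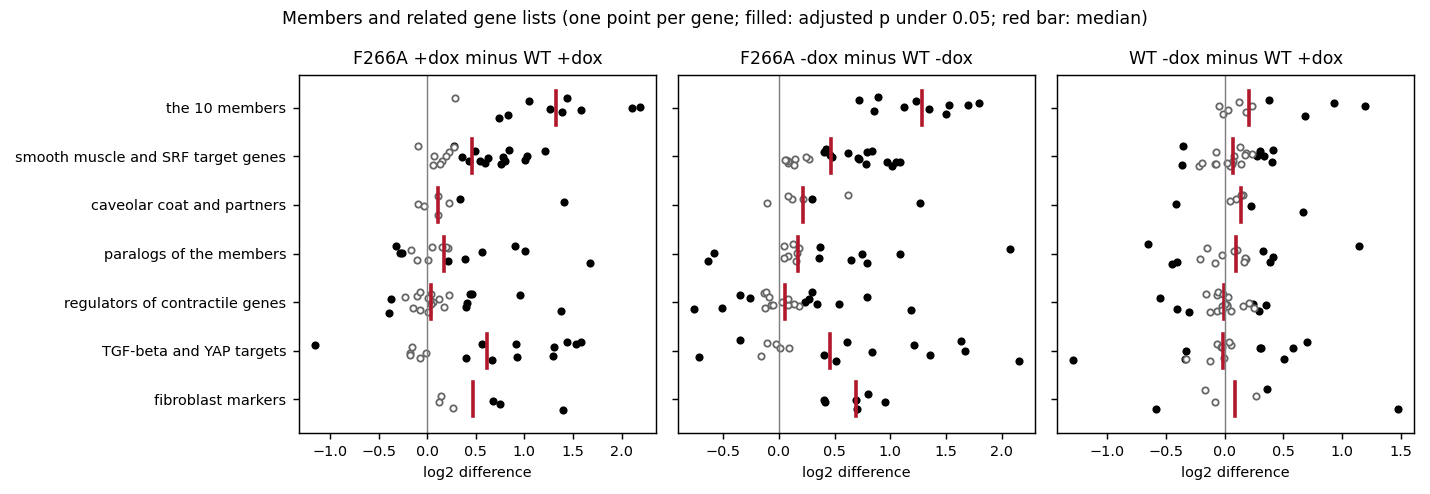
Log2 difference of every expressed gene of the members and of 6 related lists in 3 comparisons, with filled points for adjusted p under 0.05 and a red bar at the median. The 10 members have medians of 1.33, 1.29 and 0.21 in the panels from left to right, and the list of smooth muscle and SRF target genes has 0.46, 0.47 and 0.07.

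Markers of other cell types were read beside these results. Of 6 expressed fibroblast markers 3 were higher in F266A +dox than in WT +dox cells, Vim (1.40 ± 0.10), Twist1 (0.75 ± 0.10) and Col5a1 (0.67 ± 0.09). Without dox all 6 were higher in F266A than in WT cells (median 0.70, 14% of all genes). In WT -dox the means of Col1a2 and S100a4 were under the minimum. The means of Twist1 were under the minimum in all 4 groups, and 14 of the 20 listed were not above the minimum in any array or had no probe set of their own. The summed linear level of the expressed fibroblast markers was 1312 to 1497 in F266A -dox, 869 to 987 in F266A +dox, 855 to 872 in WT -dox and 479 to 501 in WT +dox. Vim alone made 60.9 to 62.6% of this sum in F266A +dox and 42.8 to 45.9% in WT +dox, and the other 5 genes summed to 340 to 369 in F266A +dox and 271 to 274 in WT +dox. Of 10 expressed cardiac and skeletal muscle markers 2 were higher and 1 lower in F266A +dox than in WT +dox cells. Of 5 expressed endothelial markers none was higher and 2 were lower. Over all genes 15.9% were called higher and 1488 of 11940 lower, so the muscle counts are near those shares. The summed levels of the muscle markers were 1511 to 1648 for F266A +dox and 964 to 1013 for WT +dox. The actin gene Acta1 (1.67 ± 0.13) carried this rise, and the median difference of the 10 markers was -0.08. Of the other called markers Actc1 was higher (0.39 ± 0.11) and Myl7 lower (-0.29 ± 0.09). The endothelial sums were 332 to 341 for F266A +dox and 404 to 415 for WT +dox. The part of any such cells in the members' levels was not tested, and in bulk arrays a few cells with much of a transcript cannot be told apart from many cells with little.

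Of 15 ESC markers, 1 was higher and 7 were lower in F266A +dox than in WT +dox cells. Those lower were led by Tcl1 (-0.97 ± 0.07), Tfcp2l1 (-0.51 ± 0.08), Fgf4 (-0.51 ± 0.07) and Esrrb (-0.41 ± 0.06), and Dppa3 was higher (0.30 ± 0.08). Not called were, among others, Pou5f1 (-0.04 ± 0.08), Sox2 (-0.24 ± 0.08) and Dppa5a (-0.15 ± 0.06), which had the highest values of the list. The summed linear level of the 15 markers was 45910 to 47392 in F266A -dox, 56289 to 56485 in F266A +dox, 58107 to 59186 in WT -dox and 65470 to 66415 in WT +dox. These sums ran in the reverse of the members' order. At the middle step, F266A +dox against WT -dox, 2 markers were lower, none was higher and 13 were not called. Over all 11940 genes 526 were lower at this step. A technical control also ran in reverse, since a probe set for 18S ribosomal RNA read 9.60 and 9.57 in F266A -dox, 10.61 and 10.35 in F266A +dox, 11.13 and 10.78 in WT -dox, and 11.42 and 10.99 in WT +dox. Its part in the members' differences was not tested.

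The genes outside the set with the pattern most like that of Tagln were looked for among 703 genes whose group means spanned at least 1 on the log2 scale. The highest Pearson correlations over the 8 arrays were those of Tubb6 (0.998), a tubulin, Krt19 (0.998) and Krt8 (0.996), keratins of simple epithelia, Flt1 (0.997), a receptor of vascular growth factors, and Creb3 (0.996). Krt19 had values of 10.03 and 10.49 in F266A -dox, 9.60 and 9.51 in F266A +dox, 7.79 and 7.84 in WT -dox, and 6.93 and 6.90 in WT +dox, so its groups did not overlap and kept the order of the members. Among the members the correlation with Tagln was highest for Tpm1 (0.992) and lowest for Cav2 (0.860). The 8 points of each correlation share 4 groups and 2 lines, and the values are descriptions.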

How the data were processed

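Total RNA of 8 samples was hybridised to Affymetrix mouse whole-genome arrays. The deposited values are log2 expression values that the authors computed with RMA in R 2.11.1, which corrects background, quantile-normalises the arrays and summarises each probe set, so shifts common to all genes are removed and differences of dim genes are compressed. Sequencing depth has no counterpart here, and the precision is limited by 2 arrays per group.

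Of 45101 probe sets, 64 controls were set aside and 34945 had 1 gene symbol, 932 several and 9160 none. Probe sets above a linear value of 50 in any array (20046) were averaged per gene, as in the study's methods, which gave 11940 genes. In place of SAM, limma 3.58.1 in R 4.3.3 was fitted with 4 group means over all arrays, without a block, and 6 pairwise differences and the interaction (F266A withdrawal minus WT withdrawal) were tested two-sided. P-values were adjusted by Benjamini-Hochberg over all genes and called under 0.05. Errors are standard errors (median 0.08) unless named SD. On simulated data for F266A +dox against WT +dox (11940 genes, 200 changed), 69.2% of log2 changes of 0.5 and 96.4% of changes of 1 were recovered. Many more genes, 3384, were called in the data themselves, so these rates do not give the sensitivity there.

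Named genes were all members, up to 4 called genes per list with the largest change in the comparison described, the 5 genes most like Tagln and Wdr5. Other list genes, such as Srf, Mrtfa, Tgfbi, those called lower and those not above the minimum, were singled out after their values were seen. The members and lists were chosen with earlier results of these data known. Alternatives were the expression minimum, the probe set summary, normalization, the arrays fitted, a replicate block, the variance prior, a 2-fold threshold and leaving out each array. Promoter windows came from RefSeq.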

Additional observations from a re-analysis of the deposited data

Results flagged for a closer look

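The change on dox withdrawal differed between the lines for 2 members by the interaction test. Cav1 rose more in F266A than in WT cells, by 0.52 ± 0.13 on the log2 scale (limma, adjusted p = 0.0487), with withdrawal differences of 0.48 ± 0.09 in F266A cells and -0.05 ± 0.09 in WT cells. Its WT arrays were all under the expression minimum. Cnn1 rose less in F266A than in WT cells, by -0.69 ± 0.11 (adjusted p = 0.0101), with 0.51 ± 0.08 in F266A cells and 1.20 ± 0.08 in WT cells. Its WT +dox arrays were under the minimum.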

How the results depend on the processing

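Of 1250 recomputed differences of single members, 1138 kept their direction and side of the threshold, 72 lost a call and 12 gained one. The sign changed in 28, of which 24 were called in neither setting, all for Acta2, Cav1, Cav2, Tpm1 or Tpm2, and 4 had been called. The 4 came from the flat Tpm2 probe set 1419739_at taken alone, at -0.0146 for F266A +dox and -0.00797 for F266A -dox against WT -dox, and at -0.0111 for F266A +dox and -0.00439 for F266A -dox against WT +dox. Requiring at least 2-fold moved the members called to 1 for withdrawal in WT cells, 0 for withdrawal in F266A cells, 4 for F266A +dox against WT -dox and 0 for the interaction. The interaction count was 1 with no expression minimum, with median-centred arrays, with each probe set taken singly, with each gene's brightest probe set and with the replicate block. Leaving out 1 array gave 9 to 10 members for F266A +dox against WT +dox, 3 to 4 for withdrawal in WT cells, 1 to 7 for withdrawal in F266A cells, 10 to 10 for F266A -dox against either WT group, 9 to 9 for F266A +dox against WT -dox and 0 to 2 for the interaction. At a minimum of 100 Cav2 gave no value. Deviations of arrays with the same replicate number correlated at 0.16 and 0.13 within a line and at -0.18 to -0.11 between lines, so the numbers were not taken as pairs. With the replicate block the members called were 9 with dox and 10 without dox between the lines, 4 and 6 on withdrawal in WT and F266A cells, 10 for F266A -dox against WT +dox and 9 for F266A +dox against WT -dox. The calls lost with the block were those of Tagln on withdrawal in F266A cells (adjusted p = 0.0531) and of Cav1 in the interaction (adjusted p = 0.0625). Causes of these shifts were not tested.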
